A study of Schizosaccharomyces pombe with 8 samples.

Results

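The genes described here encode splicing factors of the fission yeast Schizosaccharomyces pombe, and their transcript levels were followed in cells exposed to nitric oxide. A gene was included when its array probe set was annotated with exactly 1 S. pombe gene and its symbol consisted of prp, cwf, lsm, snu, usp or saf followed by a number. This gave 64 genes of the 2896 S. pombe genes with such a probe set, and each of the 64 was read by a single probe set. The symbols usp104, usp105 and usp106 are those of the array annotation, and the current names of these genes are prp40, prp39 and luc7.

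Introns are removed from precursor mRNA by the spliceosome, which is built on each intron from small nuclear ribonucleoproteins (snRNPs) and then dismantled. The U1 snRNP recognises the 5' splice site and the U2 snRNP the branch point, after which the U4/U6.U5 tri-snRNP joins and the Prp19 complex helps to form the active centre. ATP-dependent helicases drive the rearrangements between these states, and rings of Lsm proteins bind U6 RNA in the nucleus and deadenylated mRNA in the cytoplasm. Introns are common in S. pombe genes, and many of these factors were found there in screens for prp mutants (pre-mRNA processing) or as proteins copurified with Cdc5, the cwf set.

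Both strains were of mating type h-. The wild type was strain 972h-, and the deletion strain was AV25, in which pap1 is replaced by the kanMX6 cassette. Pap1 is a transcription factor of the oxidative stress response. Cells grown in yeast extract medium were moved to PBS, a salt buffer. The nitric oxide donor detaNONOate was added at 3 mM for 15 min at 30 °C, and control cells received the decomposed donor. Control and treated cells were drawn from 1 flask, and each of the 4 groups has 2 arrays that the labels call biological replicates. Nothing in the labels says that the 2 arrays came from separate cultures, so a p-value measures only the spread between these arrays.

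All values are log2 expression values of a probe set, and a difference of 1 is a 2-fold change. The background level, the 95th percentile of the means of the S. cerevisiae probe sets on the same array, was 3.41. The pap1 probe set read between 9.90 and 10.11 in wild type arrays and between 2.14 and 2.35 in deletion arrays, which fits the labels. The genes of the M-factor pheromone (mfm1, mfm2 and mfm3), of its exporter (mam1) and of the P-factor receptor (mam2), which mark h- cells, lay above background in every array, from 3.90 to 8.74, and so did the P-cell markers map2 and map3, from 4.65 to 5.96. The balance of signal between the 3' and 5' probe sets of 7 S. pombe control transcripts moved with treatment: the mean of this index was 1.34 in control and 3.35 in treated wild type arrays, and 1.65 and 2.64 in the deletion. The same index over probe sets for 4 Bacillus subtilis transcripts went from 3.32 to 4.33 in wild type and from 3.32 to 3.80 in the deletion. Probe sets for the hybridization controls bioB, bioC, bioD and cre had an index between 0.232 and 0.330 in all 8 arrays, and their mean level went from 8.71 to 9.85 in wild type and from 8.59 to 8.66 in the deletion, where treated and control arrays overlapped. Within a strain the S. pombe and B. subtilis indices changed together with the treatment and cannot be told apart from it.

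Of the 64 genes, 62 had a mean over the 8 arrays above background, and 61 were above it in every array. The probe sets of prp18, a factor of the second catalytic step, and saf4 were below background in all 4 groups, and that of lsm8 was close to it. The median standard deviation between the arrays of a group was 0.054 for the 64 genes and 0.041 for all 2896 genes, and the largest among the 64 was 0.28. Saf5 and prp24, whose symbols also match the rule, were not analysed here.

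Most splicing factor transcripts were higher after detaNONOate in wild type cells. Of the 64 genes, 40 rose, 10 fell and 14 did not pass the test (limma, Benjamini-Hochberg adjusted p under 0.05 over all 2896 genes). Among all genes 40.5% rose and 39.7% fell, against 62.5% and 15.6% of the splicing factor genes. Their median log2 difference was 0.37, against 0.017 for all genes. A rise of at least 2-fold was seen for 8 of the 64 (cwf18, cwf12, prp3, prp4, snu66, lsm7, lsm1 and lsm6) and for 5.52% of all genes. None of the 64 fell by that much, whereas 12.4% of all genes did. The 3'-to-5' index of the S. pombe control transcripts went from 1.34 to 3.35 in the same arrays. A fit with 1 treatment effect for both strains gave 27 higher and 7 lower of the 64 genes. Entering this index made these counts 3 and 16. Among all 2896 genes it took 1002 higher and 844 lower to 511 and 310. This fit joins both strains and has no term for a strain difference in response. Its counts are therefore not wild type counts adjusted for the index. Both treated arrays lay above both control arrays for 44 of the 64 genes and below them for 12, while the shares among all genes were 46.1% and 44%. Such separation was a condition for naming the largest rises and falls in each strain below, so it gives those genes no further support. Each array measured the RNA of a whole culture, scaled to a common distribution of signal, so a change in some of the cells cannot be told apart from a smaller change in all of them, nor less RNA per cell be seen.

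In the pap1 deletion the differences between treated and control cells were smaller. Here 20 of the 64 genes rose, 12 fell and 32 did not pass the test, while 35.5% of all genes rose and 26.9% fell. The median log2 difference was 0.040, against 0.047 for all genes. None of the 64 changed by 2-fold or more by limma's test, while among all genes 0.587% rose and 2.35% fell by that much. An unadjusted p under 0.05 was found by the same test for 33 of the 64 and for 1908 of all 2896 genes. Among the 12 that fell was saf4, whose probe set was below background in every group. Treated arrays both lay above the control arrays for 28 of the 64 genes and below them for 16, against 46.7% and 36.5% of all genes.

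**Figure D1:**
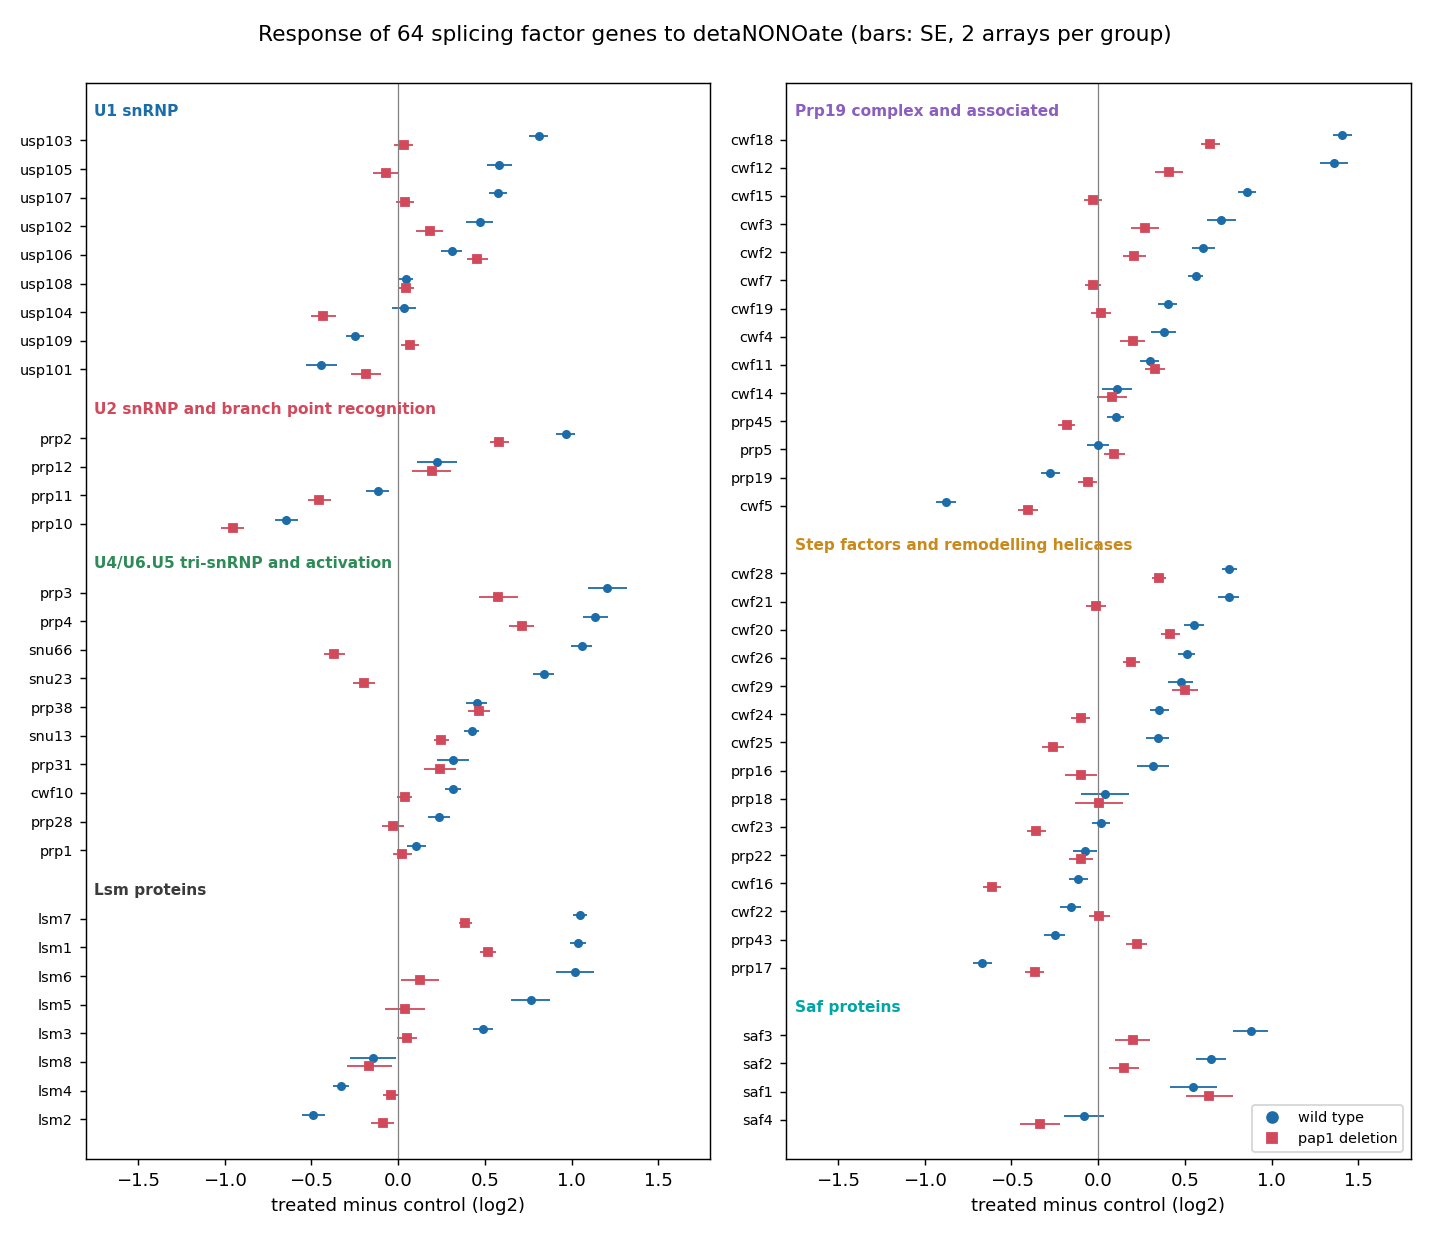
Log2 difference between treated and control arrays for each of the 64 genes, ordered by role, in wild type (circles) and in the pap1 deletion (squares). Bars are the standard errors of the limma fit with 2 arrays per group; wild type values run from -0.88 for cwf5 to 1.41 for cwf18, and deletion values from -0.95 for prp10 to 0.71 for prp4.

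The genes of the U4/U6.U5 tri-snRNP and of spliceosome activation mostly rose in wild type. Of 10 genes 9 rose, none fell, and prp1, encoding a Prp6-like protein, gave 0.10 ± 0.05. In the deletion 4 rose (prp3, prp4, prp38 and snu13), 2 fell (snu66 and snu23) and 4 did not pass the test. The shares of all genes were 40.5% higher and 39.7% lower in wild type, and 35.5% and 26.9% in the deletion.

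The gene prp4 encodes a kinase that phosphorylates Prp1. Its probe set read 5.79 and 5.86 in wild type control arrays and 7.06 and 6.86 in treated ones, and 6.19 and 6.12 against 6.83 and 6.91 in the deletion. All 4 treated arrays were higher than all 4 control arrays. The rise was 2.20-fold in wild type (1.14 ± 0.07, SE, adjusted p = 5.00e-06) and 1.64-fold in the deletion (0.71 ± 0.07, adjusted p = 1.65e-04). For prp3, a U4/U6 protein, the arrays read 5.44 and 5.27 against 6.43 and 6.69 in wild type and 5.63 and 5.47 against 6.03 and 6.22 in the deletion. The groups did not overlap within either strain, and prp3 rose by 1.21 ± 0.11 in wild type, against a rise of 0.58 ± 0.11 in the deletion.

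Snu66, a tri-snRNP protein that binds the ubiquitin-like protein Hub1, moved in opposite directions in the strains. Its wild type arrays read 7.55 and 7.47 in control and 8.56 and 8.59 in treated cells, and its deletion arrays 7.63 and 7.53 in control and 7.15 and 7.28 in treated cells. Treated arrays were thus above the controls in wild type and below them in the deletion, with no overlap in either. The log2 difference was 1.06 ± 0.06 in wild type (adjusted p = 2.91e-06) and -0.37 ± 0.06 in the deletion (adjusted p = 0.00154). Snu23, a zinc finger protein of the tri-snRNP, showed the same pattern, with 5.78 and 5.74 against 6.57 and 6.63 in wild type and 6.08 and 6.24 against 5.93 and 5.999 in the deletion. It rose by 0.84 ± 0.06 in wild type (adjusted p = 1.14e-05) and fell by 0.20 ± 0.06 in the deletion (adjusted p = 0.0280).

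Smaller changes were found for the rest of the tri-snRNP genes. Cwf10, the GTPase corresponding to Snu114 of S. cerevisiae, rose by 0.32 ± 0.04 in wild type and gave 0.04 ± 0.04 in the deletion. Snu13, which is shared by U4 and the box C/D small nucleolar RNPs, rose by 0.42 ± 0.04 and 0.25 ± 0.04. Prp38, needed for activation of the assembled spliceosome, rose alike in both strains, by 0.45 ± 0.06 and 0.47 ± 0.06, with a difference of 0.01 ± 0.09. Prp31, another U4/U6 protein, rose by 0.32 ± 0.09 in wild type, and so did prp28, a DEAD-box protein that acts in the release of U1, by 0.24 ± 0.06.

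**Figure D2:**
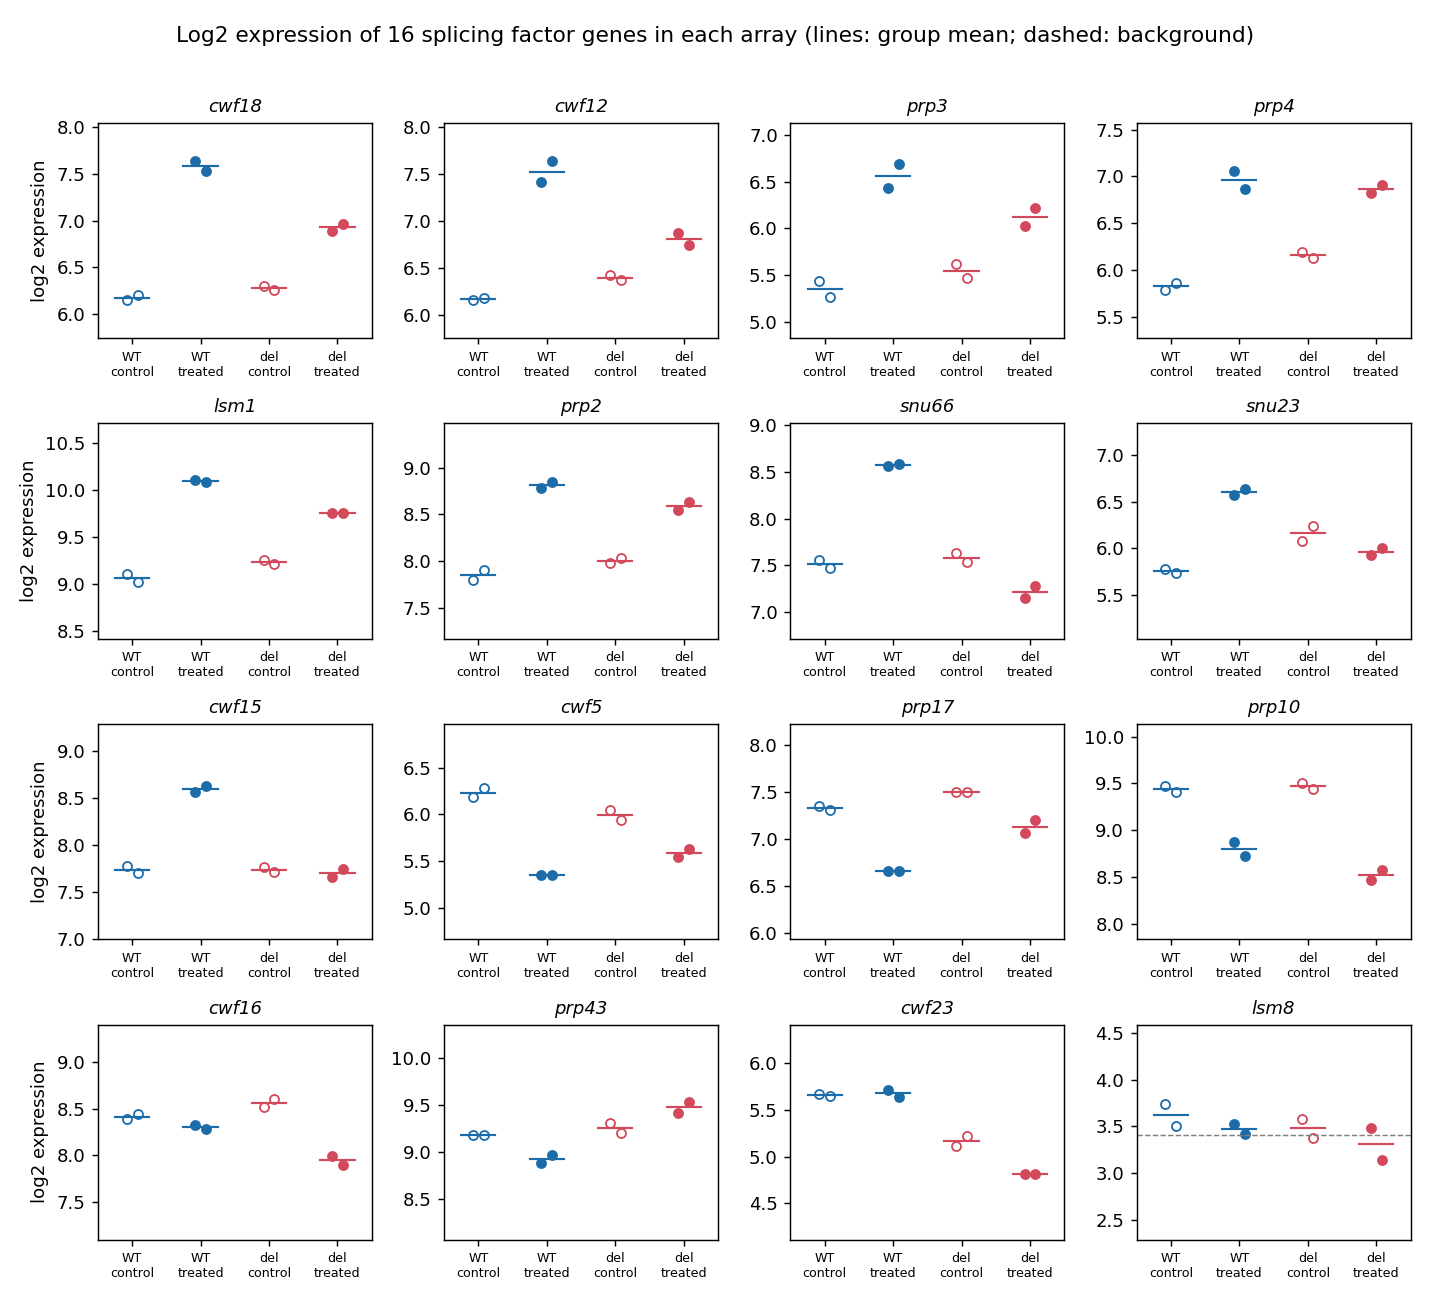
Log2 expression value of 16 splicing factor genes in each of the 8 arrays, grouped by strain and treatment (open points control, filled points treated). Each point is 1 array and each line a group mean; snu66 and snu23 lie above their controls in treated wild type arrays and below them in treated deletion arrays, and prp10 lies below its controls in both strains.

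Among the 14 genes of the Prp19 complex and its partners, 9 rose and 2 fell in wild type (64.3% and 14.3%, against 40.5% and 39.7% of all genes). In the deletion 6 rose and 2 fell (42.9% and 14.3%, against 35.5% and 26.9%). Cwf18, the counterpart of human CCDC12, had the largest rise of the 64 genes in wild type. It read 6.15 and 6.20 in control and 7.64 and 7.53 in treated wild type arrays, and 6.30 and 6.26 against 6.89 and 6.96 in the deletion. No treated array reached as low as any control array. This was a 2.65-fold rise in wild type (1.41 ± 0.05, adjusted p = 4.30e-07) and a 1.57-fold rise in the deletion (0.65 ± 0.05, adjusted p = 6.88e-05). Cwf12, the counterpart of S. cerevisiae Isy1, read 6.16 and 6.18 against 7.41 and 7.64 in wild type and 6.42 and 6.37 against 6.87 and 6.74 in the deletion. It rose by 1.36 ± 0.08 (adjusted p = 3.25e-06) and 0.41 ± 0.08 (adjusted p = 0.00341), again with treated arrays above control arrays throughout.

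Cwf15, related to Cwc15 of S. cerevisiae, differed from these in the deletion. The wild type arrays read 7.77 and 7.70 in control and 8.56 and 8.62 in treated cells, and the deletion arrays 7.76 and 7.71 in control and 7.66 and 7.75 in treated cells. Treated and control arrays overlapped in the deletion only, where the difference was -0.03 ± 0.05, while cwf15 rose by 0.86 ± 0.05 in wild type. The TPR proteins cwf3 and cwf4, counterparts of Syf1 and Syf3, rose by 0.71 ± 0.08 and 0.38 ± 0.07 in wild type and by 0.27 ± 0.08 and 0.20 ± 0.07 in the deletion. The RNA-binding protein gene cwf2 rose by 0.61 ± 0.07 and 0.21 ± 0.07, and the Aquarius-like helicase gene cwf11 by 0.30 ± 0.06 and 0.33 ± 0.06. Cwf7, related to human SPF27, rose by 0.56 ± 0.04 in wild type and gave -0.03 ± 0.04 in the deletion, and cwf19 rose by 0.40 ± 0.06 and gave 0.02 ± 0.06.

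The members of this group that fell in wild type were cwf5 and prp19. Cwf5, the counterpart of Ecm2, read 6.18 and 6.28 against 5.35 and 5.35 in wild type and 6.05 and 5.93 against 5.55 and 5.63 in the deletion. Every treated array was below every control array. The fall was 1.84-fold in wild type (-0.88 ± 0.06, adjusted p = 6.62e-06), the largest among the 64 genes, and 1.32-fold in the deletion (-0.41 ± 0.06, adjusted p = 9.01e-04). Prp19, the ubiquitin ligase that names the complex, fell by 0.28 ± 0.05 in wild type (adjusted p = 0.00224) and gave -0.06 ± 0.05 in the deletion; with the S. pombe genes quantile normalized, its wild type value was -0.07 and did not pass the test (adjusted p = 0.231). Prp45, the SNW family protein, fell by 0.18 ± 0.05 in the deletion and gave 0.10 ± 0.05 in wild type. The WD-repeat gene prp5 and the Bud31 counterpart cwf14 passed the test in neither strain.

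Of the 8 Lsm genes 5 rose, 2 fell and 1 did not pass the test in wild type (all genes: 40.5% rose and 39.7% fell). In the deletion 2 rose and none fell (all genes: 35.5% and 26.9%). Lsm1, the subunit that sets the cytoplasmic decapping ring apart from the nuclear one, read 9.10 and 9.02 against 10.11 and 10.09 in wild type and 9.26 and 9.21 against 9.76 and 9.76 in the deletion. It rose by 1.04 ± 0.05 (adjusted p = 7.81e-07) and 0.52 ± 0.05 (adjusted p = 8.52e-05), and treated arrays lay above all controls. Lsm7, found in both rings, read 10.12 and 10.13 against 11.17 and 11.18 in wild type and 10.35 and 10.30 against 10.71 and 10.71 in the deletion. Here too the groups were apart, with rises of 1.05 ± 0.04 and 0.39 ± 0.04. Lsm6 read 9.32 and 9.26 against 10.29 and 10.33 in wild type and 9.36 and 9.54 against 9.74 and 9.41 in the deletion. In wild type it rose by 1.02 ± 0.11, and in the deletion, where its arrays overlapped, the difference was 0.12 ± 0.11 (adjusted p = 0.354; 0.29 and 0.0263 without the second treated array).

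The shared ring subunits did not move as a block. Lsm5 and lsm3 rose by 0.76 ± 0.11 and 0.49 ± 0.06 in wild type, with 0.04 ± 0.11 and 0.05 ± 0.06 in the deletion. Lsm2 fell by 0.49 ± 0.07 and lsm4 by 0.33 ± 0.05 in wild type, with -0.09 ± 0.07 and -0.04 ± 0.05 in the deletion. Lsm8, the subunit particular to the nuclear ring, read 3.74, 3.50, 3.53 and 3.42 in the wild type control and treated arrays and 3.58, 3.38, 3.49 and 3.14 in those of the deletion. These values lay on either side of the background level and give no reading of its response.

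The 9 U1 snRNP genes split between directions in wild type, with 5 higher, 2 lower and 2 that did not pass the test. Higher were thus 55.6% and lower 22.2%, against 40.5% and 39.7% of all genes. Usp103, the C protein of U1, which contacts the 5' splice site duplex, read 7.19 and 7.06 against 7.97 and 7.90 in wild type and 7.24 and 7.22 against 7.26 and 7.27 in the deletion. It rose by 0.81 ± 0.05 in wild type (adjusted p = 6.32e-06) and gave 0.03 ± 0.05 in the deletion, where all 4 arrays lay close together. Usp105 (Prp39) and usp107 (Snu71) each rose by 0.58, with SEs of 0.07 and 0.05, and gave -0.07 ± 0.07 and 0.04 ± 0.05 in the deletion. Usp102, the A protein of U1, rose by 0.47 ± 0.08 and gave 0.18 ± 0.08 (adjusted p = 0.0785). The U1-70K gene usp101 fell by 0.44 ± 0.09 in wild type (adjusted p = 0.00232) and gave -0.18 ± 0.09 in the deletion, and usp109 fell by 0.25 ± 0.05 and gave 0.07 ± 0.05.

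In the deletion 1 U1 gene rose and 1 fell (11.1% each, against 35.5% and 26.9% of all genes). Usp106 (Luc7) read 6.26 and 6.18 against 6.47 and 6.59 in wild type and 6.19 and 6.22 against 6.61 and 6.71 in the deletion. Treated arrays were higher in both strains, and usp106 rose by 0.31 ± 0.06 and 0.46 ± 0.06. Usp104 (Prp40) read 9.76 and 9.82 against 9.79 and 9.85 in wild type, and 9.85 and 9.95 against 9.57 and 9.38 in the deletion. Its wild type groups overlapped (0.03 ± 0.07), and it fell by 0.43 ± 0.07 in the deletion (adjusted p = 0.00153).

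The 4 genes of the U2 snRNP and of branch point recognition held the largest rise outside the tri-snRNP, Prp19 complex and Lsm genes in wild type, and the largest fall in the deletion. Prp2, the large subunit of U2AF, which binds the polypyrimidine tract, read 7.80 and 7.90 against 8.79 and 8.85 in wild type and 7.98 and 8.03 against 8.54 and 8.64 in the deletion. It rose by 0.97 ± 0.06 (adjusted p = 3.03e-06) and 0.58 ± 0.06 (adjusted p = 1.24e-04). Prp10, the counterpart of human SF3B1, which holds the branch point, read 9.47 and 9.41 against 8.87 and 8.72 in wild type and 9.51 and 9.44 against 8.47 and 8.57 in the deletion. Treated arrays were below control arrays without overlap, with a fall of 1.56-fold in wild type (-0.64 ± 0.07, adjusted p = 6.28e-05) and 1.93-fold in the deletion (-0.95 ± 0.07, adjusted p = 3.32e-05). The DEAD-box protein gene prp11 gave -0.12 ± 0.07 in wild type and fell by 0.45 ± 0.07 in the deletion, and prp12, the SF3b subunit corresponding to human SF3B3, passed the test in neither.

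Among the 15 step factors and remodelling helicases, 8 rose and 3 fell in wild type (53.3% and 20%, against 40.5% and 39.7% of all genes). In the deletion 5 rose and 4 fell (33.3% and 26.7%), near the 35.5% and 26.9% of all genes. Cwf28 and cwf21, the latter related to human SRRM2, had the largest rises in wild type, of 0.76 ± 0.04 and 0.75 ± 0.06. In the deletion cwf28 rose by 0.35 ± 0.04 and cwf21 gave -0.01 ± 0.06. Cwf29 (the Ist3 counterpart), cwf20 and cwf26 (Bud13) rose in both strains, by 0.48 ± 0.07, 0.55 ± 0.06 and 0.51 ± 0.05 in wild type and by 0.50 ± 0.07, 0.42 ± 0.06 and 0.19 ± 0.05 in the deletion. Cwf24, a RING finger protein, rose by 0.35 ± 0.05 and the DEAH-box helicase gene prp16 by 0.32 ± 0.09 in wild type, with -0.10 ± 0.05 and -0.10 ± 0.09 in the deletion.

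Prp17, a WD-repeat protein of the second catalytic step, read 7.35 and 7.31 against 6.66 and 6.66 in wild type and 7.50 and 7.50 against 7.06 and 7.20 in the deletion. It fell by 0.67 ± 0.05 (adjusted p = 1.51e-05) and 0.37 ± 0.05 (adjusted p = 8.33e-04), with all treated arrays below all controls. Cwf16, of the Yju2 family, read 8.39 and 8.44 against 8.32 and 8.28 in wild type and 8.52 and 8.60 against 7.998 and 7.90 in the deletion. Treated arrays were the lower ones in both strains, but only the fall of 0.61 ± 0.05 in the deletion passed the test (adjusted p = 8.77e-05; wild type -0.12 ± 0.05, adjusted p = 0.0827). Cwf22, which carries a MIF4G domain, fell by 0.16 ± 0.06 in wild type and gave 0.01 ± 0.06 in the deletion.

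Prp43, the DEAH-box helicase that dismantles the spliceosome after splicing, was the reverse of snu66. It read 9.18 and 9.18 against 8.89 and 8.97 in wild type, and 9.31 and 9.20 against 9.42 and 9.54 in the deletion. Treated arrays were below the controls in wild type and above them in the deletion. The differences were -0.25 ± 0.06 (adjusted p = 0.00558) and 0.22 ± 0.06 (adjusted p = 0.0142), and after quantile normalization the wild type value was -0.06 (adjusted p = 0.262). Cwf25, needed for the first catalytic step, went the way of snu66, with a rise of 0.34 ± 0.07 in wild type and a fall of 0.26 ± 0.07 in the deletion. The DEAH-box helicase gene prp22, which releases the mature mRNA, gave -0.08 ± 0.07 and -0.10 ± 0.07.

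Of the 4 Saf genes, saf1, saf2 and saf3 rose in wild type, by 0.55 ± 0.14, 0.65 ± 0.09 and 0.88 ± 0.10. In the deletion saf1 rose by 0.64 ± 0.14, while saf2 and saf3 gave 0.15 ± 0.09 and 0.20 ± 0.10. Saf2 passed the test there without the first treated deletion array (0.28, adjusted p = 0.0104), and saf3 without either treated wild type array (adjusted p = 0.0326), which changes only the estimate of the spread. Saf1 read 3.83 and 3.95 against 4.29 and 4.58 in wild type and 4.17 and 3.80 against 4.57 and 4.68 in the deletion, so its treated arrays were the higher ones in both strains, near the lower end of the values above background.

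Taking the strains side by side, 19 genes rose in both, which is 47.5% of the 40 that rose in wild type and 95% of the 20 that rose in the deletion. Of all genes 27.4% rose in both strains, 67.6% of those that rose in wild type and 77.2% of those that rose in the deletion. Cwf5, prp10 and prp17 fell in both strains, as did 22.7% of all genes. Snu66, snu23 and cwf25 rose in wild type and fell in the deletion (4.69% of the 64, against 1.69% of all genes), and prp43 did the opposite (1.56%, against 3.04% of all genes). Of the 50 genes that changed in wild type, 44 (88%) had a smaller difference in the deletion, against 85.5% of the 2323 changed genes of the whole array. Over all of the 64 genes, changed or not, the median size of the difference was 0.462 in wild type and 0.196 in the deletion. For all genes these medians were 0.455 and 0.245. Across the 64 genes the 2 sets of differences had a Pearson r of 0.63, and across all genes 0.79; the points share the same 8 arrays, and genes are not independent replicates.

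**Figure D3:**
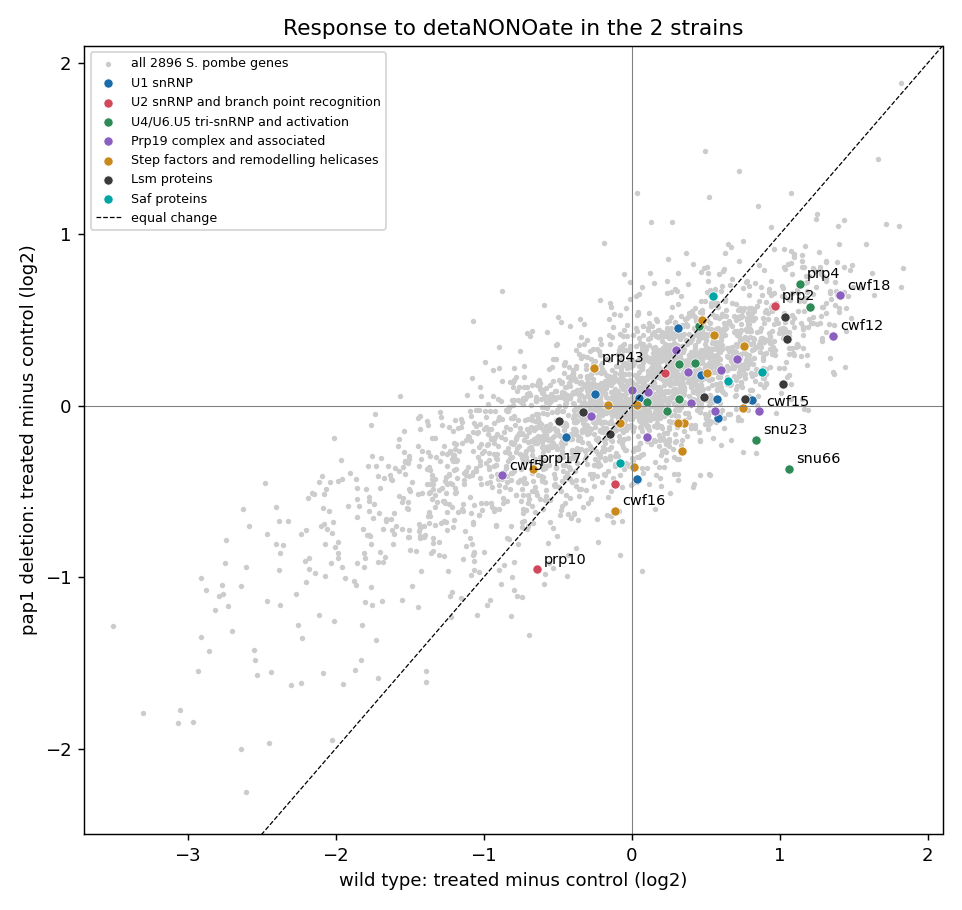
Log2 difference between treated and control arrays in the pap1 deletion (vertical axis) against that in wild type (horizontal axis), with splicing factor genes coloured by role and all 2896 genes in grey. Most coloured points to the right of 0 lie under the line of equal change; snu66 and snu23 lie furthest below it in the lower right quadrant, and prp43 is in the upper left one.

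The response itself was then compared between strains, as the deletion's treated minus control difference less that of wild type. For 37 of the 64 genes it was lower in the deletion and for 7 higher, and 20 did not pass the test. Among all genes 25.1% were lower and 33.9% higher, a split that turned to 975 lower and 810 higher of 2896 after quantile normalization, where the splicing factor genes gave 40 lower and 4 higher. The median over the 64 genes was -0.31, against 0.053 for all genes. The strain difference of snu66, -1.43 ± 0.09 (adjusted p = 3.18e-05), was the lowest of all 2896 genes, and that of snu23, -1.04 ± 0.09 (adjusted p = 9.81e-05), was also past 2-fold. No other gene of the 64 differed that much in either direction. Among all genes 0.587% were lower and 5.97% higher by 2-fold or more.

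The next lowest strain differences were those of cwf12 (-0.95 ± 0.11), lsm6 (-0.89 ± 0.15) and cwf15 (-0.89 ± 0.07). The highest belonged to genes that fell in wild type: prp43 (0.47 ± 0.08), cwf5 (0.47 ± 0.08), lsm2 (0.40 ± 0.09), usp109 (0.32 ± 0.07) and prp17 (0.30 ± 0.07). The strains also differed for lsm1 (-0.52 ± 0.06), prp4 (-0.42 ± 0.10), prp2 (-0.38 ± 0.08) and cwf10 (-0.28 ± 0.06). For prp10 (-0.31 ± 0.09, adjusted p = 0.0244), prp19 (0.22 ± 0.08, adjusted p = 0.0440) and snu13 (-0.17 ± 0.06, adjusted p = 0.0363) the call was lost without 1 array. Leaving out 1 array raised the adjusted p to as much as 0.0833 for prp10, 0.142 for prp19 and 0.127 for snu13. Quantile normalization also ended the calls of prp19 (0.04, adjusted p = 0.655) and lsm2 (0.20, adjusted p = 0.105). The 3'-to-5' index of the S. pombe control transcripts moved by 2.01 in the wild type arrays and 0.99 in those of the deletion, and its part in the strain difference was not tested.

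By role, the response was lower in the deletion for 7 of 10 tri-snRNP genes, 8 of 14 Prp19 complex genes, 8 of 15 step factors and helicases, 5 of 8 Lsm genes, 4 of 9 U1 genes, 3 of 4 U2 genes and 2 of 4 Saf genes. It was higher for 2 Prp19 complex genes, 2 step factors, 2 Lsm genes and 1 U1 gene. The shares over all genes were 25.1% lower and 33.9% higher. After quantile normalization, for which the role lists were not counted, 975 of all genes were lower and 810 higher. The medians of the strain difference ran from -0.27 for the tri-snRNP genes to -0.48 for the Lsm genes, so no role list had a median above 0. Prp22 (-0.02 ± 0.10), usp101 (0.26 ± 0.12) and lsm8 (-0.02 ± 0.19) did not pass the test, and the same held for 7 of the 19 genes that rose in both strains (prp38, cwf29, cwf11, cwf4, cwf20, usp106 and saf1). Usp101 passed it without the second treated wild type array (0.36, adjusted p = 0.0271).

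Fewer differences separated the strains without the active donor. In control cells 8 genes were higher in the deletion (snu23, prp4, prp5, usp109, lsm7, cwf28, lsm1 and cwf7) and cwf23 and cwf5 were lower, against 8.22% and 9.15% of all genes. The largest differences were those of cwf23, a DnaJ-domain protein (-0.49 ± 0.05, adjusted p = 0.00312), snu23 (0.40 ± 0.06, adjusted p = 0.00881), prp4 (0.33 ± 0.07) and prp5 (0.26 ± 0.06). Cwf5 gave -0.24 ± 0.06, usp109 0.21 ± 0.05 and lsm7 0.20 ± 0.04, and lsm1 0.18 ± 0.05. Leaving out either of the wild type control arrays left none of the 64 genes higher in the deletion, and leaving out either deletion control array left 1, with 1 lower in each case. Prp2 (0.15), prp10 (0.03), prp19 (0.06), prp22 (0.03), cwf10 (-0.08), usp101 (0.04), lsm8 (-0.14) and snu13 (-0.01) did not pass the test.

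In treated cells 36 of the 64 genes were lower in the deletion than in wild type and 10 were higher. Among all genes 26.5% were lower and 39.3% higher, which became 1020 lower and 913 higher after quantile normalization, with 39 lower and 8 higher among the splicing factor genes. Snu66 was the furthest down, at -1.36 ± 0.06 (adjusted p = 5.60e-06), followed by cwf15 (-0.89 ± 0.05), cwf23 (-0.86 ± 0.05), lsm6 (-0.73 ± 0.11) and cwf12 (-0.72 ± 0.08). Prp43 (0.55 ± 0.06), usp109 (0.53 ± 0.05), prp17 (0.47 ± 0.05), prp5 (0.35 ± 0.06) and lsm4 (0.30 ± 0.05) were the furthest up. Cwf10 (-0.35), lsm1 (-0.34), prp10 (-0.28), prp2 (-0.23) and snu13 (-0.18) were lower and usp101 (0.30) and prp19 (0.28) higher, while prp4 (-0.09), prp22 (0.01) and lsm8 (-0.16) did not pass the test. The call of prp2 was lost without the first treated deletion array (adjusted p = 0.0521), and that of usp101 without the first treated wild type array (0.0824) or the second treated deletion array (0.111), and prp4 passed it without the second treated wild type array (-0.19, adjusted p = 0.0366).

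Cwf23 was lower in the deletion both with and without the active donor. Wild type arrays read 5.67 and 5.65 in control and 5.71 and 5.64 in treated cells, and deletion arrays 5.11 and 5.22 in control and 4.81 and 4.81 in treated cells. The deletion arrays were all below the wild type arrays, and within the deletion the treated ones were lower. Treatment changed it by 0.02 ± 0.05 in wild type (adjusted p = 0.793) and by -0.36 ± 0.05 in the deletion (adjusted p = 9.18e-04). Prp5 and usp109 were higher in the deletion in both comparisons, as were 2.45% of all genes, and cwf23 alone of the 64 was lower in both, as were 1.97% of all genes. In the reference annotation cwf23 and prp11, which both passed the test in the deletion and not in wild type, are neighbouring protein-coding genes, as are cwf22 and cwf24.

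A fit with 1 treatment effect common to both strains allowed the index of signal balance to enter as a covariate. Without it 27 of the 64 genes rose and 7 fell (34.6% and 29.1% of all genes), with a median of 0.27. With the index of the S. pombe transcripts, 3 rose (prp38, prp43 and usp106) and 16 fell, the median was -0.13, and 511 of 2896 genes rose and 310 fell. With the index of the B. subtilis transcripts, an alternative chosen after seeing the data, usp106 rose and 7 genes fell (cwf16, cwf23, cwf25, prp10, prp11, snu66 and usp104), while 272 of all genes rose and 191 fell. Cwf18 went from 1.03 to -0.06 and 0.08, prp4 from 0.92 to 0.31 and 0.36, and prp2 from 0.78 to 0.23 and 0.31, none past the threshold with an index. Usp106 gave 0.38, 0.56 and 0.63 and prp10 -0.80, -1.28 and -1.17. The sign of the common effect turned with the S. pombe index for 37 of the 64 genes and with the B. subtilis index for 33. Of these, 17 and 14 had passed the test without an index. The share of all genes whose sign turned is not given here. This fit has no term for a strain difference in response, while the index was larger in treated wild type than in treated deletion arrays. Within groups the S. pombe index varied little, with an SD from 0.007 to 0.12. This fit can therefore hardly tell an effect of the index from a strain difference in response. How much of such a difference the index takes up was not tested.

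**Figure D4:**
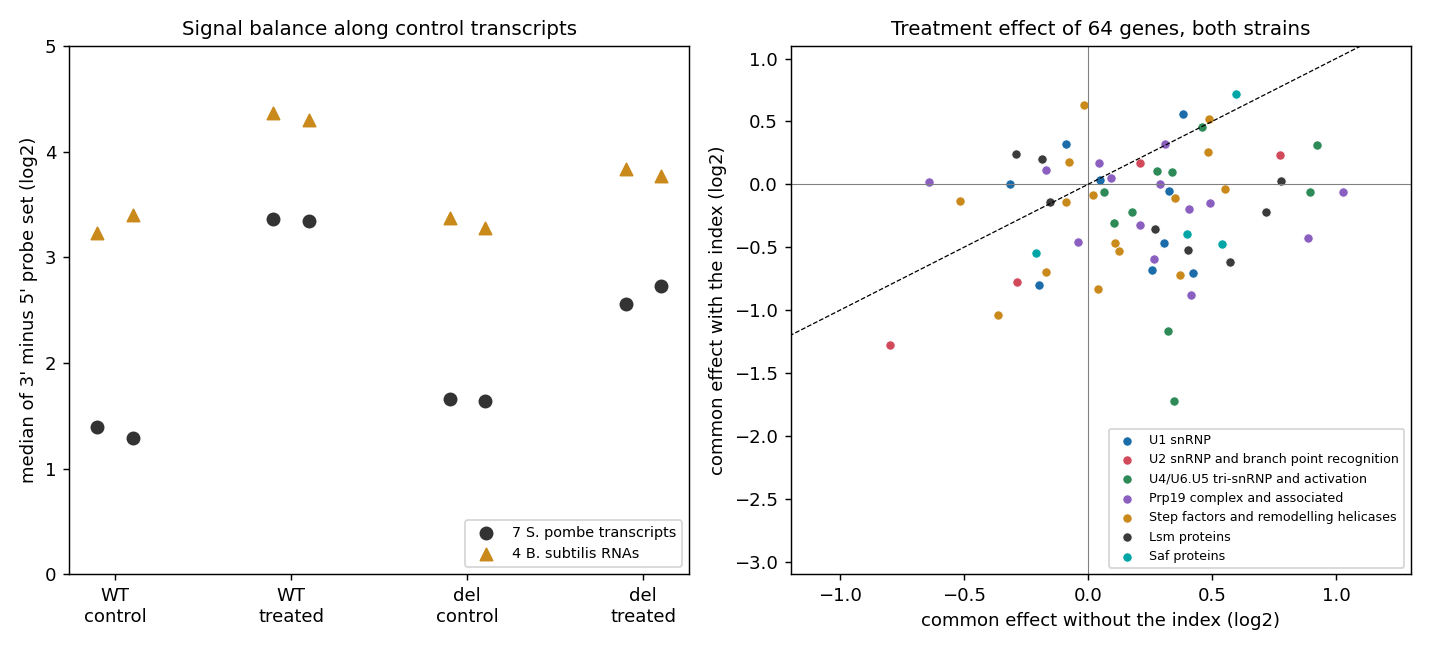
Left, the median of 3' minus 5' probe set signal (log2) in each of the 8 arrays for 7 S. pombe transcripts (circles) and 4 B. subtilis RNAs (triangles), which is higher in treated arrays of both strains. Right, the treatment effect common to both strains for each of the 64 genes with the S. pombe index as a covariate (vertical axis) against that without it (horizontal axis), with a dashed line of equality; most points lie below the line.

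The difference in wild type had a Spearman rank correlation of -0.34 with the length of the gene across the 64 genes, and of -0.10 across all genes. In the deletion the values were -0.16 and -0.11. The median gene length was 1822 bp for the splicing factor genes and 1878 bp for all genes.

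The other spliceosome genes of a list chosen beside this one, 29 of 35 of which were measured, were called in shares near those of all genes. In wild type 14 rose and 10 fell (48.3% and 34.5%, against 40.5% and 39.7% of all genes), with a median of 0.15. In the deletion 12 rose and 9 fell (41.4% and 31%, against 35.5% and 26.9%). Components of the same particle differed. The Sm ring gene smb1 read 10.39 and 10.43 against 8.49 and 8.52 in wild type and fell by 1.91 ± 0.05, and it fell by 0.39 ± 0.05 in the deletion. Smd2, of the same ring, read 8.82 and 8.83 against 10.19 and 10.02 and rose by 1.28 ± 0.07 in wild type and by 0.77 ± 0.07 in the deletion. The other ring genes smd1, smd3, sme1, smf1 and smg1 also rose in both strains. Their wild type rises were 0.47, 0.95, 0.66, 0.65 and 0.73, so smb1 was the only ring gene that fell. The SF3a genes sap62 and sap61 fell by 1.52 ± 0.04 and 1.38 ± 0.13 in wild type and by 0.60 ± 0.04 and 0.37 ± 0.13 in the deletion. Sap114, also an SF3a gene, did not fall: it gave 0.15 ± 0.06 in wild type, short of the threshold, and rose by 0.34 ± 0.06 in the deletion. Smn1, which assembles Sm rings, rose by 1.38 ± 0.07 and 0.67 ± 0.07, and the SR protein gene srp1 fell by 1.01 ± 0.05 and 0.28 ± 0.05. Further changes in the deletion were those of cdc5, the core of the Prp19 complex (-0.68 ± 0.07), the LAMMER kinase lkh1 (0.61 ± 0.06) and the lariat debranching enzyme dbr1 (0.51 ± 0.07).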

How the data were processed

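The values the authors deposited are on a log2 scale, 1 per Affymetrix Yeast_2 probe set. The submitters' processing notes name RMA (background correction, quantile normalization and summary over probes) and no version. They were used as deposited for all 8 arrays, with groups and replicate numbers taken from the titles. Of 10928 probe sets 2914 had a single S. pombe gene, and for each of 2896 genes the probe set with the highest mean was kept. The fit used limma 3.58.1 in R 4.3.3, with a mean for each group, eBayes (no trend), 4 residual and 3.07 prior degrees of freedom. Adjusted p-values are Benjamini-Hochberg over all 2896 genes, at a threshold of 0.05 with no fold minimum. A second fit had strain and treatment as additive terms. The 5 contrasts share arrays. Alternatives were other scalings, a filter on dim probe sets, other variance models, the mean over probe sets, a replicate block, only the groups of a contrast, leaving out each array, and an index covariate. Genes named by value were the largest changes past the threshold (up to 8 each way per treatment contrast, 5 in the others, 3 per role list) and a fixed set in every contrast (prp2, prp4, prp10, prp19, prp22, cwf10, usp101, lsm1, lsm8 and snu13). The largest rises and falls within a strain were also required to show no overlap between treated and control values. The lack of overlap reported for them is thus a condition of entry and not a separate finding. Further members are named to describe their role lists. Members, lists and rule were chosen with earlier results of these data known. No count underlies these values, and the number of arrays limits the precision.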

Additional observations from a re-analysis of the deposited data

Results flagged for a closer look

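The treatment response of 44 of the 64 splicing factor genes differed between the strains by the test of the difference itself (68.8%, against 59.1% of all genes). The log2 difference of the deletion's response less that of wild type was 0.47 for prp43, 0.47 for cwf5, 0.40 for lsm2, 0.32 for usp109, 0.30 for prp17 and 0.22 for prp19. It was -1.43 for snu66, -1.04 for snu23, -0.95 for cwf12, -0.89 for lsm6, -0.89 for cwf15 and -0.52 for lsm1. Smaller negative values were found for prp4 (-0.42), prp2 (-0.38), prp10 (-0.31), cwf10 (-0.28) and snu13 (-0.17). Snu66 and snu23 rose in wild type and fell in the deletion, and prp43 fell in wild type and rose in the deletion.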

How the results depend on the processing

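The direction of the counts held under the scalings, filters, variance models and left-out arrays tried: more of the 64 genes rose than fell in wild type, and more had a lower than a higher response in the deletion. With 1 array left out, 39 to 40 rose and 9 to 11 fell in wild type, 15 to 23 and 8 to 12 in the deletion, 6 to 7 were higher and 32 to 36 lower in the strain difference, and 7 to 12 were higher and 31 to 36 lower in treated deletion cells. The common effect gave 22 to 30 and 5 to 8. The count higher in the strain difference was 4 after quantile normalization (7 as deposited). Least settled was the deletion against wild type in control cells, with 0 to 14 higher and 1 to 2 lower genes of the 64, and 24 to 320 and 83 to 340 of all genes. As deposited these counts were 8, 2, 238 and 265. The count of 8 became 15 with arrays centred on the median gene, 13 after quantile normalization and 16 with only the control groups, and the count of 2 became 1 with a variance trend. Among all genes 367 were higher with the trend, and 386 were higher and 401 lower with only the control groups. The cause was not tested.

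Deviations of same-numbered arrays had correlations from -0.26 to 0.06 between groups. The labels do not say whether same-numbered arrays shared a flask, and with 2 arrays per group these correlations cannot settle it. With the replicate number as a block the control comparison gave 5 higher and 1 lower of the 64 and 156 higher of all genes, and no other count moved by over 1.5 times. Among the genes named by rule it ended the calls of snu13 in the strain difference (adjusted p = 0.0638), of usp109 (0.0646), cwf5 (0.0619) and lsm1 (0.0578) in control cells, and of usp103 (0.0687) and usp107 (0.0686) in the common effect.

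The fit with the index of the S. pombe transcripts as a covariate gave 3 higher and 16 lower, and 511 and 310 of all genes; with the B. subtilis index these were 1, 7, 272 and 191. The sign of the common effect turned for 37 of the 64 genes with the first index and for 33 with the second. Of these, 17 and 14 had passed the test without an index. The lists that follow cover only the genes named by rule for the wild type response. They leave out others that turned with both indices, such as snu23 and cwf15. Among the genes named by rule, signs turned with the first index for usp103 (-0.71), usp105 (-0.68), usp107 (-0.47), prp3 (-0.061), snu66 (-1.72), cwf18 (-0.064), cwf12 (-0.42), cwf5 (0.021), cwf28 (-0.040), cwf21 (-0.72), lsm7 (-0.22), lsm6 (-0.62), saf3 (-0.47), saf2 (-0.39), prp19 (0.12), cwf10 (-0.22), lsm2 (0.24), lsm4 (0.20) and prp43 (0.63). With the second they turned for usp103 (-0.48), usp105 (-0.55), usp107 (-0.32), snu66 (-1.34), cwf12 (-0.26), cwf21 (-0.58), lsm7 (-0.083), lsm6 (-0.49), saf3 (-0.26), saf2 (-0.15), prp19 (0.088), cwf10 (-0.17), usp101 (0.10), lsm2 (0.22), lsm4 (0.20) and prp43 (0.56).

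Among the genes named by rule for each comparison, the changes of sign under scaling or with 1 array left out concerned values that had not passed the test. Centring and quantile normalization gave 0.013 and 0.018 for snu13 in control cells, -0.052 and -0.065 for prp22 in treated cells and 0.028 and 0.10 for the common effect of prp43, and centring gave 0.0064 for prp22 in wild type. With 1 array left out, ranges crossed 0 for prp22 in wild type (-0.16 to 0.0006), and in the deletion for usp105 (-0.15 to 0.0046), cwf21 (-0.072 to 0.045), lsm6 (-0.044 to 0.29), cwf10 (-0.0017 to 0.079) and lsm8 (-0.34 to 0.0095). The same was seen for the strain difference of prp22 (-0.10 to 0.058) and lsm8 (-0.19 to 0.15), and for the common effect of prp43 (-0.086 to 0.048). For the deletion against wild type it was seen in control cells for prp10 (-0.0039 to 0.066), usp101 (-0.015 to 0.10) and snu13 (-0.037 to 0.024), and in treated cells for prp4 (-0.19 to 0.0073), prp22 (-0.068 to 0.090) and lsm8 (-0.33 to 0.014).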
